A study of Mus musculus with 12 samples.

Results

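Accessible chromatin of hematopoietic stem cells (HSCs) from the bone marrow of young wild-type (WT) and young Mlkl-/- mice was compared by ATAC-seq, an assay that tags DNA not wrapped in closed chromatin by letting a transposase cut it. The comparison used 6 of the 12 lists of peak summits in the series, 3 from WT and 3 from Mlkl-/- mice, chosen by the labelled genotype and the labelled age of 3 months. The other 6 lists, from WT and Mlkl-/- mice at 18 months, served to see whether a difference between genotypes recurred in separate samples. They also entered the common list length, the merging of regions, the choice of tested regions and the estimate of spread in the fit of single regions. All mice were C57BL/6, untreated as far as the labels say, and the Mlkl-/- animals lacked the gene in every tissue, so that effects of its loss in HSCs and in their surroundings cannot be told apart. Per the study's methods, each list came from HSCs pooled from several mice and all cells were processed on the same day. The labels give no sex for the pools. The study asked whether MLKL contributes to the ageing of HSCs, and the young groups compare the genotypes before the animals are old.

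MLKL is the last protein of necroptosis, an inflammatory form of cell death. The kinases RIPK1 and RIPK3 receive signals from death receptors and from sensors of viral nucleic acid, RIPK3 phosphorylates MLKL, and MLKL then forms oligomers that damage membranes. HSCs are the rare bone marrow cells from which all blood lineages arise, and their open regions lie at promoters and at distal elements bound by factors of the RUNX, ETS, GATA and AP-1 families. AP-1 is a dimer of FOS and JUN proteins that is induced by stress and cytokines, and NF-kB is the factor that most inflammatory receptors activate.

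The sequences below show what the results turn on. Each is the plus strand (5′ to 3′) of the GRCm38 (mm10) reference around the highest summit of its region, except the stretch upstream of Mlkl, which is given on the minus strand on which the gene lies. Capitals mark matches to TGANTCA (AP-1) or TGTGGTT (RUNX) on either strand. A match describes the letters and is not evidence of a bound factor. The stretch before the Mlkl start, at chr8:111338178-111338377, and the site 5.27 kb upstream, at chr8:111343371-111343521, are shown because the genotypes differ by construction at this gene.
Mlkl upstream: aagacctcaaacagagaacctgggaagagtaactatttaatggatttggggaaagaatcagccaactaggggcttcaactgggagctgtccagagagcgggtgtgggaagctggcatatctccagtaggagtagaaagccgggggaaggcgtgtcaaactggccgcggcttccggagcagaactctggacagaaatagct
Mlkl upstream site: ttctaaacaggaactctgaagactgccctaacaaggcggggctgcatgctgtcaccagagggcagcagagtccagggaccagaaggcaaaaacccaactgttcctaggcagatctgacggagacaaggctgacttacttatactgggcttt
The next stretches are from the only region called in every Mlkl-/- list and no WT list at both ages (an intron of Dop1a, chr9:86476929-86477079) and from a gained region with one of the largest differences (chr10:53180895-53181045, near Gm40649).
gained at both ages: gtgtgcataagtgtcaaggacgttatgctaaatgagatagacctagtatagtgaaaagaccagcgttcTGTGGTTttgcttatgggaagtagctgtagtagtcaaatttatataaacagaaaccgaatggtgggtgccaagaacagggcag
gained at 3 months: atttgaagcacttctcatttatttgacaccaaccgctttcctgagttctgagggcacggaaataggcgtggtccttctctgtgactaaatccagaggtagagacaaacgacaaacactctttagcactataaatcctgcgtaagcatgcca
The last are from 3 regions called in every young WT list and no young Mlkl-/- list, in an intron of Gsn (chr2:35271903-35272053), 19.5 kb from Itpr2 (chr6:146521609-146521759) and 37.1 kb from Mrpl33 (chr5:31576811-31576961). They were not absent from the mutant, since 1, 1 and 2 Mlkl-/- lists held a summit there before the lists were cut to equal length. The 3 stretches carry 2, 1 and 3 AP-1 matches.
lost near Gsn: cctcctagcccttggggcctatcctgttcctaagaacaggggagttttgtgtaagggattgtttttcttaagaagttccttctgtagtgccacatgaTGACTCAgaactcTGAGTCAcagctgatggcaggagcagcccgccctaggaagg
lost near Itpr2: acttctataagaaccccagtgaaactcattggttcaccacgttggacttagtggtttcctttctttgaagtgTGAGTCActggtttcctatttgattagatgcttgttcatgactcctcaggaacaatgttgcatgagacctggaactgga
lost near Mrpl33: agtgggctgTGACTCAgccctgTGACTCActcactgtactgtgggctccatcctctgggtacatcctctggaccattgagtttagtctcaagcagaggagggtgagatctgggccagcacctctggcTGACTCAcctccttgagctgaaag

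The young lists held 48815, 45672 and 39529 summits for WT and 48448, 58031 and 36805 for Mlkl-/- replicates 1 to 3. Summits were kept on chromosomes 1 to 19 and X with a score, the −log10 of the q-value, of at least 3, which left 42988 ± 5004 per WT list and 46337 ± 10332 per Mlkl-/- list (SD, n = 3). The difference of 3348 was smaller than the spread between lists (two-sided exact permutation test, p = 0.7). The share of these summits within 1 kb of a transcription start was 45.0, 47.7 and 49.7% in WT and 45.0, 39.1 and 53.3% in Mlkl-/- lists. The longest list, Mlkl-/- 2, had the lowest share and the shortest list, Mlkl-/- 3, the highest, and the WT lists lay between them. The means were 47.5 ± 2.36% and 45.8 ± 7.1% (difference −1.69 points, exact permutation p = 0.7). With 3 lists against 3 no such test can give a p below 0.1. The lists hold no read counts, so depth is unknown and no counting error can be given.

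Some promoters of HSC genes were open in every list and others in none. Of 24 HSC regulators 10 promoters (41.7%), and of 12 surface genes 4 (33.3%), were called in all 6 young lists, against 45.8% of all protein-coding genes. The promoters of Hlf and Meis1, transcription factors needed for HSC maintenance, and of Kit, the stem cell factor receptor used in the sort, were called in 6 of 6 young lists. Other HSC genes had few or no promoter calls in these lists, among them Procr, called in 1 list of each genotype, and Mecom and Slamf1, called in none. Of 8 B cell genes only Ebf1 had a called promoter, in every list, and none of 8 genes of unrelated tissues had one. T and NK cell promoters gave 1 call in all, in Mlkl-/- 1, and the 10 myeloid genes gave 0 or 1 call per list. Of 8 erythroid genes 2, 3 and 2 were called in WT and 2, 2 and 4 in Mlkl-/- lists. In such pools fewer cells of a type and a less open region in each cell cannot be told apart. The 8 stromal and endothelial genes differed more between lists, as described with the AP-1 regions below. Summits within 1 kb of the starts of the Y-linked genes Kdm5d, Eif2s3y, Uty and Ddx3y were found in WT 1 (2 summits), Mlkl-/- 1 (5) and Mlkl-/- 2 (2) and in no other list of either age. Summits on the Y chromosome as a whole numbered 40, 25 and 16 in young WT and 33, 39 and 19 in young Mlkl-/- lists. No young list had a summit within 1 kb of the start of Xist, so the sex of the pools stays unknown.

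For regions, each of the 12 lists was cut to the 35696 summits with the highest scores, as many as the shortest list had, and windows of 250 bp on each side were merged over the lists into 52775 regions. Of these, 44748 were called in at least 1 young list and 18380, or 41.1%, in all 6. A further 9598 were called in a single young list. Of the 21935 regions called in all 3 WT lists, 83.8% were also called in all 3 Mlkl-/- lists, and of the 20928 called in all 3 Mlkl-/- lists, 87.8% were also called in all 3 WT lists. The shared set was largely stable with age, since 84.5% of it (15538 regions) was called in all 12 lists. It was also richer in promoters than the rest: 54.4% of shared regions lay within 1 kb of a start, against 34.4% of all regions called in a young list.

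Within the shared set the ranks of the genotypes were close. Ranks were expressed as normal scores within each list, with uncalled regions sharing the lowest rank at −0.82 to −0.74. The difference between genotypes had an SD of 0.227 over the shared regions, 97.0% of them differed by less than 0.5, and the largest difference was 1.01. The 6 shared regions of highest rank away from starts lay in introns of Gm33838 (chr9:35305168-35305720) and Chl1 (chr6:103648940-103649457), 13.0 kb from Abcb11 (chr2:69355346-69355852) and in gene-poor stretches (chr12:3109726-3110236, chr12:97061298-97061838 and chr5:60042737-60043245). Their normal scores were between 3.71 and 4.28 in every young list. In 3 of them over 68% of the bases were repeat-masked in the reference (68.1, 75.6 and 75.9%), which is where mapping of short reads is least certain. Their genotype differences, −0.25 to 0.21, were smaller than their standard errors.

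The excess of likeness within genotypes over that between them was within the spread of the divisions. The Jaccard index, the share of the regions of either list that both lists hold, averaged 0.697 within WT, 0.653 within Mlkl-/- and 0.671 between genotypes. Its mean within genotypes, 0.675, exceeded that between by 0.00332, and 4 of the 10 ways to divide the 6 lists into 3 and 3 gave at least as much (exact permutation p = 0.4). Summit positions did not separate the genotypes either. In the 9304 regions with a single summit in each young list, the median distance between the summits of a pair of lists averaged 21.5 bp within and 20.4 bp between genotypes (difference 1.06 bp, exact permutation p = 0.9).

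**Figure D1:**
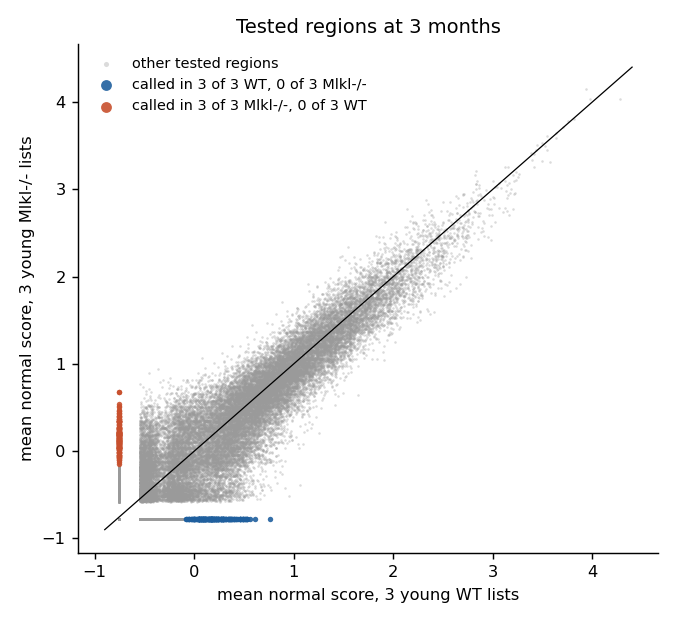
Mean normal score of each of the 38046 tested regions in the 3 young WT lists (horizontal) and the 3 young Mlkl-/- lists (vertical), with the line of equality; blue points are the 208 regions called in every WT and no Mlkl-/- list and red points the 189 called in every Mlkl-/- and no WT list. The regions called in one genotype only sit at the low end of the scale, along the floor set by uncalled regions, and regions of high rank lie close to the line.

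No single region passed the test for a difference between genotypes. Over the 38046 regions called in at least 3 of the 12 lists, limma called 0 at an adjusted p under 0.01 (0.0%) and 0 at an adjusted p under 0.05, and the lowest adjusted p was 0.503. At an unadjusted p under 0.05 there were 2055 regions (5.4%), 945 higher and 1110 lower in Mlkl-/- lists. The median standard error of a difference was 0.32, and the median half-width of the unadjusted 95% interval was 0.65, or 0.49 for regions called in all 6 lists. Smaller differences were not detectable in single regions, and after adjustment neither were much larger ones. Even the largest rise (1.45) and the largest fall (−1.54) had limma adjusted p-values of 0.624. With uncalled regions tied at the same lowest value in every list, the values of the groups did not overlap in 3062 regions, 3.6% of those tested with the Mlkl-/- lists above and 4.44% with them below. As many or more were found in 4 of the 10 divisions, which gave 2546 to 3930 (exact permutation p = 0.4). The lowest p belonged to a region 54.8 kb from Kcng3, a potassium channel subunit (chr17:83576869-83577466). Its normal scores were 1.05, 1.02 and 0.78 in WT and −0.78, −0.82 and 0.04 in Mlkl-/- lists, a difference of −1.47 ± 0.27 (SE, limma adjusted p = 0.503), and at 18 months it was called in 6 of 6 lists.

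Regions called in all lists of one genotype and none of the other were few. There were 189 called only in Mlkl-/- lists (0.497% of those tested), referred to as gained, and 208 called only in WT lists (0.547%), referred to as lost. The total of 397 was exceeded by 3 of the 9 other divisions of the same lists, and all 10 gave 325 to 551 (exact permutation p = 0.4). The division with the most, 551, set WT 1, Mlkl-/- 1 and Mlkl-/- 2 against WT 2, WT 3 and Mlkl-/- 3. The first 3 of these are the lists with summits at the Y-linked genes named above and also the 3 longest young lists. The part of sex or of list length in that count was not tested.

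**Figure D2:**
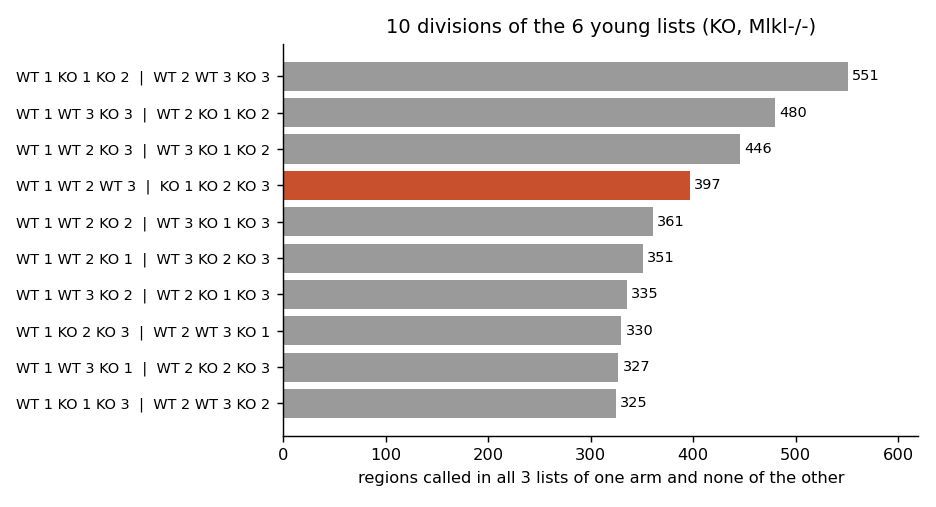
Number of regions called in all 3 lists of an arm and in none of the other (horizontal bars, from 0) for the 10 divisions of the 6 young lists, each row naming its arms with KO for Mlkl-/-. The division by genotype (red) gives 397 regions, between the lowest of 325 and the highest of 551.

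Gained and lost regions were mostly weak and distal. Only 16.6% lay within 1 kb of a start (15.3% of gained, 17.8% of lost) against 37.2% of the other tested regions, and 50.1% lay in introns. Where called, their median normal score was 0.12 (gained) and 0.16 (lost), against 0.59 for all calls in young lists. Most were not absent from the other genotype: 153 of the 189 gained (81.0%) and 185 of the 208 lost regions (88.9%) held a deposited summit, of any score, in at least 1 list of the opposite genotype. That left 59 with none, 36 gained and 23 lost. The lowest score kept by the cut to equal length was 5.67, 5.44 and 3.88 in WT and 6.06, 7.83 and 3.005 in Mlkl-/- lists. A summit of the same score could thus be called in 1 list and not in another.

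The lost region with the largest difference lay in an intron of Gsn, which encodes the actin-severing protein gelsolin (chr2:35271655-35272228). Its normal scores were 1.04, 0.77 and 0.48 in WT lists and those of an uncalled region in every Mlkl-/- list. The difference was −1.54 ± 0.36 (SE, limma adjusted p = 0.624). The next lay near Itpr2, an intracellular calcium channel (chr6:146521393-146521945, −1.38 ± 0.35), 81.9 kb from Klf12 (chr14:100366282-100366909, −1.34), in an intron of Ankrd44 (chr1:54841701-54842232, −1.31), near Mrpl33 (chr5:31576626-31577170, −1.31 ± 0.28) and 138 kb from Trim24 (chr6:37732296-37732812, −1.30). At 18 months the Itpr2 region was called in 2 WT and 3 Mlkl-/- lists, and the Mrpl33 and Ankrd44 regions in none. The gained regions with the largest differences lay at chr18:82846859-82847444, 63.7 kb from Zfp516 (0.39, 1.14 and 0.52 in Mlkl-/- lists, 1.45 ± 0.37), and 0.21 kb from the start of the non-coding gene Gm40649 (chr10:53180642-53181220; 0.68, 0.79 and 0.56, 1.44 ± 0.41). After them came an intergenic region at chr6:139248781-139249453 (1.30) and introns of Mir670hg (chr2:94245272-94245931, 1.28), the adhesion receptor gene Adgrl2 (chr3:148895232-148895852, 1.27) and Palld, which encodes an actin-bundling protein (chr8:61780710-61781303, 1.23). Each of these 6 was also called in at least 1 aged WT list, so none was particular to Mlkl-/- cells over both ages.

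Few of these regions behaved alike at 18 months. There, 262 regions were gained and 166 lost, and 3 were all-or-none in the same direction as at 3 months (exact permutation over 400 labellings, p = 0.49), while 2 had turned (introns of Bcas1 and Cul4a). The region gained at both ages lay in an intron of Dop1a, a protein of endosomal traffic (chr9:86476705-86477315). Its normal scores in young Mlkl-/- lists were −0.13, −0.03 and 0.11, and its difference was 0.75 ± 0.28 at 3 and 0.72 ± 0.28 at 18 months. A region lost at both ages had its summit in an exon, 91 bp from the start of Jmjd1c, a histone demethylase family gene (chr10:67126994-67127611), with 0.43, −0.05 and 0.03 in young WT lists and differences of −0.92 ± 0.31 and −1.001 ± 0.307. The other was intergenic, 37.2 kb from the phosphatase gene Ptpn1 (chr2:167894858-167895555), with differences of −0.83 and −1.09. None of these regions was absent from the opposite genotype in the deposited lists. The Dop1a region held a summit of any score in 2 young and 2 aged WT lists. The Jmjd1c and Ptpn1 regions each held one in 2 young and 3 aged Mlkl-/- lists. Of the 304 gained or lost regions called in at least 1 aged list, 167 (54.9%) had an aged difference of the same sign, which was 50.3% of gained and 60.6% of lost regions (exact permutation, p = 0.7). Over all 397 the share was 59.9% (p = 0.6, exact permutation), but the sign of the 93 regions uncalled in every aged list is set only by where their shared lowest rank falls.

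Lost regions carried the AP-1 motif more often than gained regions did. The motif TGANTCA, searched on both strands within 100 bp of the highest summit, was present in 64 of the 208 lost regions (30.8%), in 11 of the 189 gained regions (5.82%) and in 10.0% of the other tested regions. The Gsn, Itpr2 and Mrpl33 sequences printed above are examples. Beyond 1 kb of a start the shares were 34.5% of lost, 6.25% of gained and 13.5% of other regions. The gap of 24.9 points between arms was the largest among the 10 divisions of the lists, of which the other 9 gave 0.683 to 15.7 points. That is an exact permutation p of 0.1, the smallest that 10 divisions allow, and 0.7 after Benjamini-Hochberg adjustment over the 7 motifs searched. For the other motifs 5 or more of the divisions gave a gap at least as large. The RUNX motif was in 13.2% of gained and 8.65% of lost regions, against 10.4% of other tested regions. The ETS motif, searched as AGGAAGT, was in 18.5% of gained, 13.9% of lost and 16.0% of other regions. The GATA motif, searched as AGATAA, was in 6.35% of gained, 9.13% of lost and 8.55% of other regions. CTCF was in 6.35, 1.92 and 3.58%, IRF in 2.12, 2.88 and 3.31% and NF-kB in 0.529, 0.481 and 1.01% of the same sets.

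The AP-1 difference was not confined to the gained and lost regions. Among all distal regions of a list, those with their highest summit beyond 1 kb of a start, the share with the motif was 15.1, 14.8 and 14.5% in young WT and 13.6, 12.2 and 12.1% in young Mlkl-/- lists. Every WT list was above every Mlkl-/- list. The means were 14.8 ± 0.28% and 12.65 ± 0.829% (SD, n = 3), a difference of −2.15 points (exact permutation p = 0.1, the smallest possible, and 0.35 adjusted over 7 motifs), and the nearest of the other divisions reached 1.53 points. At 18 months the shares were 14.0, 12.6 and 13.9% in WT and 13.9, 13.1 and 14.4% in Mlkl-/- lists. Those groups overlapped, with a difference of 0.315 points (exact permutation p = 0.7). The change of the difference between ages was −2.47 points (exact permutation over 400 labellings, p = 0.035, adjusted over 7 motifs 0.245).

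The ranks of AP-1 regions were lower as well. Of 3254 tested distal regions with the motif, 66.5% had a difference below 0, with a median of −0.08, against 50.5% and −0.004 for the 20705 without it. At an unadjusted p under 0.05, 279 of the former were lower and 43 higher, while for the latter 521 were lower and 646 higher. The same held among regions called in all 6 lists, where no call was missing: 69.5% of 1228 were below 0 with the motif (median −0.13) and 52.1% of 7149 without it (median −0.01). The mean normal score of the 3254 regions was 0.25, 0.23 and 0.20 in WT and 0.20, 0.12 and −0.01 in Mlkl-/- lists. Mlkl-/- 1 lay next to WT 3, so the groups were barely apart and most of the difference came from Mlkl-/- 2 and 3. Regions are not replicates, and these counts describe the 6 lists.

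**Figure D3:**
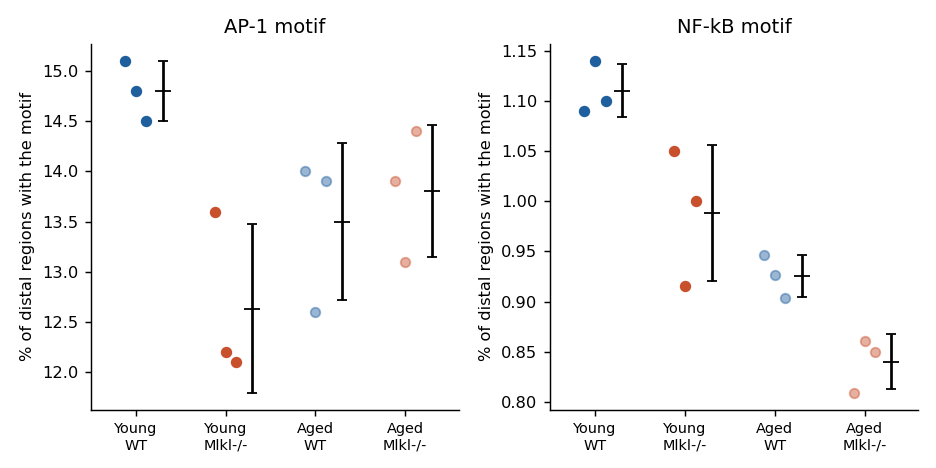
Percentage of the distal regions of each list that held an AP-1 (left) or NF-kB motif (right) within 100 bp of the highest summit; points are lists, and the bar beside each group is its mean ± SD (n = 3), on vertical axes that do not start at 0. For AP-1 the young WT lists (14.5 to 15.1%) lie above the young Mlkl-/- lists (12.1 to 13.6%) and the aged groups overlap, whereas for NF-kB each Mlkl-/- group lies below the WT group of its age.

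The promoters of AP-1 genes were open in both genotypes. Fos had normal scores of 1.10, 0.93 and 0.67 in WT and 0.59, 0.62 and 0.45 in Mlkl-/- lists (−0.35 ± 0.37), and Junb was called in 3 WT and 2 Mlkl-/- lists (−0.60 ± 0.37). The differences of Jun (0.10), Jund (−0.01), Fosb (−0.13), Fosl1 (−0.11), Fosl2 (−0.13) and Batf (0.44) were small or uneven between lists, and none of the 8 genes reached an unadjusted p of 0.05 in limma.

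Markers of stroma and endothelium also ranked lower in the young Mlkl-/- lists. Over the 4 genes of that list of 8 with a promoter region, the mean normal score was 0.08, 0.34 and 0.14 in WT and −0.32, −0.82 and 0.04 in Mlkl-/- lists. The groups did not overlap. Mlkl-/- 3 had the lowest AP-1 share and the highest marker value of its group. Called promoters numbered 3, 4 and 3 in WT and 2, 0 and 3 in Mlkl-/- lists, which overlapped. In the deposited lists before the cut to equal length, 3, 4 and 3 of the genes had a summit in each genotype, so that the calls missing in Mlkl-/- 2 were summits ranked below its cut. Cxcl12, Lepr, Cdh5 and Vcam1, the defining genes of these cells, had no promoter call in any young list, and the values came from Pdgfrb (−0.76 ± 0.43), Col1a1 (−0.72 ± 0.42), Kdr (−0.39 ± 0.37) and Emcn, called in WT 2 only. At 18 months the mean normal scores were 0.29, 0.47 and −0.51 in WT and −0.23, −0.36 and 0.03 in Mlkl-/- lists. The part of these cells in the AP-1 difference was not tested, and 4 promoters in 3 lists per group are too few to compare the order of the lists.

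NF-kB motifs were rarer and differed in the same direction at both ages. Their share of distal regions was 1.09, 1.14 and 1.10% in young WT and 1.05, 0.916 and 1.0% in young Mlkl-/- lists, a difference of −0.119 points (exact permutation p = 0.1, adjusted 0.35) that rests on about 177.2 regions per list. At 18 months it was 0.946, 0.927 and 0.904% in WT and 0.809, 0.861 and 0.850% in Mlkl-/- lists (−0.0858 points). With genotype labels permuted within each age, the mean difference of −0.102 points had an exact permutation p of 0.005, the smallest possible, and of 0.035 after adjustment over the 7 motifs. Over all regions the mean difference was −0.0688 points (exact permutation p = 0.005), and within 1 kb of a start −0.0179 points (exact permutation p = 0.325). The comparison was added after the data were seen, and the adjustment covers the motifs but not these choices of regions. The promoter of Nfkbia, which encodes the inhibitor IκBα and is itself a target of NF-kB, had scores of 1.42, 1.29 and 1.43 in young WT and 0.90, 0.65 and 1.06 in young Mlkl-/- lists. The groups did not overlap, as in 1 of 20 tested inflammation promoters and 982 of 12589 tested protein-coding promoters. The difference was −0.51 ± 0.19 (SE, limma adjusted p = 0.780). It was the lowest of the tested promoters in the inflammation list. The promoters of the NF-kB subunits Rela (0.28 ± 0.24), Nfkb1 (−0.01 ± 0.23), Nfkb2 (−0.13 ± 0.26) and Relb (−0.26 ± 0.21) differed in both directions. None of these subunits reached an unadjusted p of 0.05 in limma, and a link of Nfkbia to the motif share was not tested. For the remaining motifs no exact permutation p on distal regions at 3 months was below 0.3, the value of CTCF, whose share was 4.32, 4.10 and 3.88% in WT and 4.71, 6.53 and 3.95% in Mlkl-/- lists. Within 1 kb of a start the GATA share was 2.89, 2.95 and 2.85% in young WT and 3.1, 3.07 and 2.96% in young Mlkl-/- lists. Those groups did not overlap (exact permutation p = 0.1, 0.467 adjusted over 7 motifs). The AP-1 share there was 4.3, 4.14 and 4.03% against 4.11, 4.02 and 3.61%, which overlapped (exact permutation p = 0.2).

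Around Mlkl itself the chromatin was shared. Mlkl (ENSMUSG00000012519.14) lies at chr8:111311797-111338177 on the minus strand. Its start region (chr8:111337923-111338851), with its summit in a UTR, was called in 2 WT and 3 Mlkl-/- lists, with normal scores of −0.77, 0.07 and 0.15 in WT and 0.16, 0.00 and 0.26 in Mlkl-/- lists (0.33 ± 0.37, limma adjusted p = 0.967). All 6 deposited lists had a summit there, with highest scores of 5.45, 6.85 and 5.92 in WT and 8.65, 9.64 and 6.32 in Mlkl-/- lists. The promoter therefore remained open in the mutant, and its summit does not check the deletion, since the labels and methods do not say which part of the gene is missing. In the gene body beyond 1 kb of the start WT lists held 1 summit, of low score (2.95), and Mlkl-/- lists 0. The site 5.27 kb upstream (chr8:111343182-111343721) was called in 2 lists of each genotype (0.11 ± 0.39).

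Most neighbouring promoters were called in both genotypes. The start region of Rfwd3, a ubiquitin ligase of DNA repair, was the strongest nearby, with 2.19, 2.14 and 2.60 in WT and 2.54, 3.10 and 2.49 in Mlkl-/- lists (0.40 ± 0.23). Those of Glg1 (0.01 ± 0.24) and Fa2h (−0.10 ± 0.22) differed by less than their errors. Of 32 protein-coding genes within 1 Mb, 27 had a promoter region, 23 of these were called in all 6 lists and 14 of the 27 differences were above 0, with a median of 0.01. None of the 27 had groups that did not overlap, against 982 of 12589 tested protein-coding promoters. At an unadjusted p under 0.05 in limma there were 3 (11.1%, against 4.01% of all tested protein-coding promoters), none of which passed the adjusted threshold: Fuk (−0.83 ± 0.40), Cfdp1 (0.77 ± 0.31) and Tmem231 (0.75 ± 0.27).

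**Figure D4:**
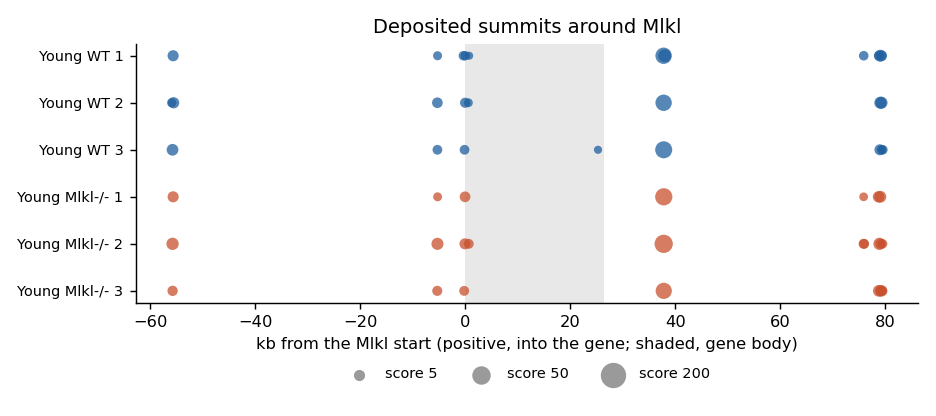
Deposited summits of the 6 young lists around Mlkl, by distance from its start in kb (horizontal, positive into the gene, gene body shaded), 1 row per list and dot area growing with the square root of the summit score. WT (blue) and Mlkl-/- lists (red) have summits at the same places: the Mlkl start, 5.27 kb upstream and the starts of Rfwd3, Glg1 and Fa2h.

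No gained or lost region lay close to the gene. There were 0 among the 58 regions tested within 1 Mb of Mlkl and, of these 58, 37 were called in all 6 lists and 6 (10.3%) had an unadjusted p under 0.05 in limma, against 5.4% of all tested regions. There was 1 gained or lost region within 5 Mb, and there were 5 within 10 Mb (1.22% of 409; exact permutation p = 0.4). Chromosome 8 as a whole had 25 of 1986 (1.26%), and all chromosomes together had 1.04%. The 3 gained within 10 Mb all lay in introns of Cmip, a signalling adaptor gene (chr8:117263414-117263930, 0.75; chr8:117282074-117283037, 0.91; chr8:117367357-117367915, 0.96). The first was called in no aged list, the second in 3 aged WT and 1 aged Mlkl-/- list and the third in all 6 aged lists. The 2 lost lay 18.4 kb from Terf2, which encodes a telomere-binding protein (chr8:107114622-107115237, −1.28), and 17.8 kb from Crispld2 (chr8:119974347-119974868, −0.98).

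Promoters of the necroptosis pathway were mostly shared. Of its 18 genes, 12 had a promoter called in all 6 young lists (66.7%, against 45.8% of 21728 protein-coding genes), and the median difference was 0.05 against −0.02 over all genes. Among the sensors and adaptors, Ticam1, the TRIF adaptor of TLR3 and TLR4, had 1.88, 1.62 and 1.64 in WT and 1.35, 0.97 and 1.18 in Mlkl-/- lists. Its groups did not overlap, as in 1 of the 18 promoters here and 982 of 12589 tested protein-coding promoters. The difference of −0.55 ± 0.19 (limma adjusted p = 0.755) was the only one of the list with an unadjusted p under 0.05. The death receptor Tnfrsf1a was called in 0 WT and 2 Mlkl-/- lists (0.40 ± 0.28), and Zbp1, a sensor of nucleic acid, in all 6 (0.18 ± 0.21). Of the kinases, Ripk1 was called in all 6 with nearly equal ranks (−0.06 ± 0.19), and Ripk3, directly upstream of MLKL, was called in 3 WT and 1 Mlkl-/- lists (−0.50 ± 0.39). Casp8, the protease that restrains the pathway, differed by −0.06 ± 0.25.

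**Figure D5:**
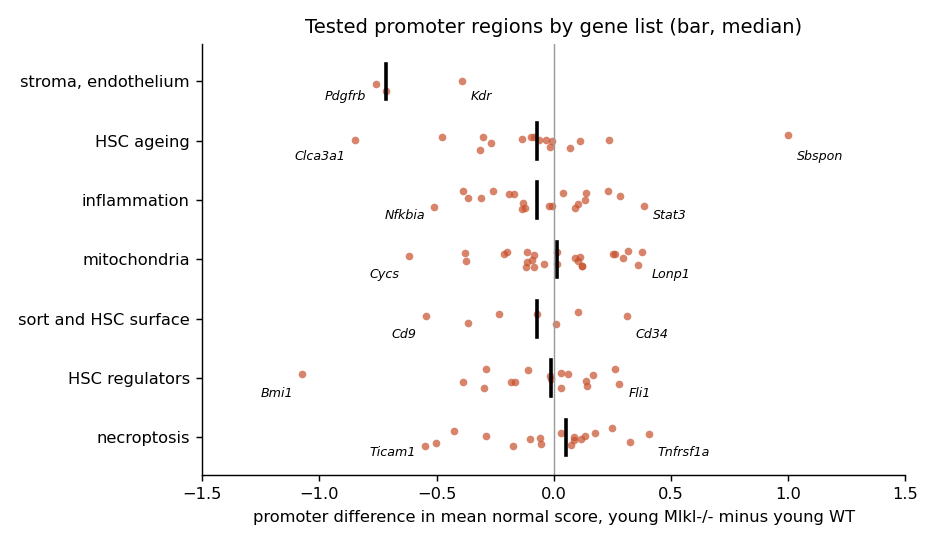
Difference in mean normal score (young Mlkl-/- minus young WT) of each tested promoter region, by gene list, with a bar at the median of each list and the lowest and highest gene of each list named. The medians of the first 6 lists lie between −0.07 and 0.05, near that of all protein-coding genes (−0.02), and that of stroma and endothelium, with 3 tested promoters, at −0.72.

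The medians of the 5 other lists of HSC and pathway genes lay between −0.07 and 0.01. Among 24 regulators of HSCs, 10 promoters were called in all 6 lists. The median over the 17 tested promoters was −0.01, and the promoter of Bmi1, the Polycomb protein that sustains self-renewal, had the lowest difference. The region used (chr2:18680851-18681453), 1 of 2 promoter regions of Bmi1, had scores of 0.57, 0.52 and 0.54 in WT and −0.03, −0.82 and −0.74 in Mlkl-/- lists (−1.07 ± 0.31, limma adjusted p = 0.626). It was called in 3 of 3 aged lists of each genotype. Of 5 regions in Bmi1 or within 10 kb of it, 2 were called in all 6 young lists and 1 had an unadjusted p under 0.05 in limma. Hlf (−0.11 ± 0.19) and Meis1 (0.26 ± 0.23) differed little. Of the 12 surface genes of the sort and of HSCs only 7 promoters were tested. These had a median of −0.07, with none at an unadjusted p under 0.05. Of 25 mitochondrial genes, 24 promoters were called in all 6 lists (median 0.01). Cytochrome c (Cycs) had 2.31, 1.32 and 2.22 in WT and 1.23, 1.49 and 1.27 in Mlkl-/- lists, which overlapped (−0.62 ± 0.22, limma adjusted p = 0.758), and the prohibitin Phb2 differed by −0.37 ± 0.18.

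Inflammation genes had a median of −0.07 over 20 tested promoters, of which 18 were called in all 6 lists. Nfkbia, described above, was the only one with an unadjusted p under 0.05, and the cytokine signal transducer Stat3 had the highest difference (0.38 ± 0.20). Of the 20 genes linked to HSC ageing, 16 promoters were tested, 4 of them (25.0%) above 0, against 47.2% of all tested protein-coding promoters, with a median of −0.07. At an unadjusted p under 0.05 there were 2 (12.5%, against 4.01%). The chloride channel regulator Clca3a1 had 0.46, 0.40 and 0.13 in WT and −0.78, −0.82 and 0.04 in Mlkl-/- lists (−0.85 ± 0.28, limma adjusted p = 0.7). Sbspon, a secreted protein, went the other way, with −0.77, 0.07 and −0.77 in WT and 0.56, 0.41 and 0.56 in Mlkl-/- lists (0.997 ± 0.308, limma adjusted p = 0.643). Both sets of values were free of overlap, the 2 such cases among 16 tested promoters, against 982 of 12589 over all protein-coding genes. Both promoters were called in 3 of 3 aged lists of each genotype.

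Over all protein-coding genes, 505 of 12589 tested promoters (4.01%) had an unadjusted p under 0.05 and 0 passed the adjusted threshold. The main promoter region was gained or lost for 42 genes, 18 gained and 24 lost. The lost promoters with the largest differences were those of N4bp2l1 (−1.30), Ghdc (−1.17) and the tetraspanin Cd63 (−1.14), and the list also held Cd68, a lysosomal protein of macrophages, with 0.60, 0.24 and 0.17 in WT lists (−1.11 ± 0.27), and the coagulation factor F5 (−1.06). The gained ones included Itm2c (1.12), the kinase gene Prkce (0.97), the autophagy gene Gabarap (0.94) and Flna, a filamin on the X chromosome (0.88). All had limma adjusted p-values above 0.6, and these examples were chosen after their values were seen.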

How the data were processed

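The authors mapped single-end reads to mm10 with Bowtie2 2.5.3 and ran MACS2 2.2.7.1 on every library separately. Per the submitters' notes and the methods, the deposited files list summits with a −log10 q-value as score, and the stated cutoff was a q-value of 0.001, although the lists start at lower scores. A shift of reads for the transposase cut is not given in the sources used here. Depth and background of a library, which set its scores, are unknown, so comparisons between lists use ranks, and scores served to filter and rank summits within a list and are otherwise given only as values at Mlkl, and the number of lists (n = 3 per group) limits precision. edgeR, which the study used on read counts, could not be applied to scores.

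Summits with a score of at least 3 on chromosomes 1 to 19 and X were kept, each list was cut to 35696 (with a seeded random order among ties), and windows of 250 bp on each side were merged over the 12 lists. Ranks within a list were turned into normal scores, which measure rank within a list rather than how open a region was. Regions called in at least 3 lists were compared with limma 3.58.1 (eBayes with a trend, 1 fit over 12 lists, R 4.3.3) at a Benjamini-Hochberg adjusted p under 0.01. limma was tested on simulated shifts of ranks in the same tables. Single values were compared by two-sided exact permutation over the 20 labellings of 6 lists, counts and Jaccard indices over the 10 divisions, and values over both ages over 400 labellings. Where nothing says that lists came from separate days or batches, p-values measure the spread between these pools. Starts and genes were those of GENCODE vM21 (GRCm38) and sequences those of the GRCm38 reference. Python 3.11.15, numpy 2.4.6, scipy 1.17.1, pandas 2.3.3 and pysam 0.24.0 were used.

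A promoter region of a gene has its highest summit within 1 kb of a start, and for each gene the region of highest score was used. Named regions were those around Mlkl and its neighbours within 1 Mb, the 6 gained and 6 lost regions with the largest difference, those all-or-none at both ages, the 6 shared distal regions of highest rank, and the lowest and highest promoters of the gene lists. The Kcng3 region, the AP-1 genes and the all-or-none regions on chromosome 8 were named after their values were seen. The members, gene lists and motifs were chosen with earlier results of these data known, and the comparisons of AP-1 and NF-kB shares by list, and the tie of uncalled regions in counts of overlap, were added after seeing the data. Same-numbered lists were not taken as paired, since the labels do not say that they share animals and their deviations did not correlate. Alternatives were lists of unequal length, a minimum score of 5 or none, windows and motif searches of other widths, autosomes, a catalogue of the young lists, other minimums of lists, percentiles, a fit of 6 lists, a replicate block, other seeds and leaving out each list.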

Additional observations from a re-analysis of the deposited data

Results flagged for a closer look

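The difference between genotypes in the AP-1 share of distal regions itself differed between ages: it was −2.15 points at 3 months and 0.315 points at 18 months, a change of −2.47 points (exact permutation over 400 labellings, p = 0.035, 0.245 after adjustment over the 7 motifs). The comparison was chosen after seeing the data. All 3 young WT lists were above all 3 young Mlkl-/- lists, and the aged groups overlapped. The mean normal scores of stromal and endothelial promoters did not overlap between the young groups and did between the aged groups, and their part in the AP-1 difference was not tested.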

How the results depend on the processing

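No alternative gave a region past an adjusted p of 0.01 in limma (lowest adjusted p 0.0377, without Mlkl-/- 3, where 1 region was under 0.05). With replicate number as a block the count was also 0 (lowest adjusted p 0.807). The numbers were not taken as a pairing, and the correlations of same-numbered lists were −0.023 to 0.017 for young and −0.193 to −0.042 for aged lists. Several differences that were within the spread changed sign. Without Mlkl-/- 2, summits per list differed by −1650 (range over lists left out −1650 to 8670), the share near starts by 1.64 points (−5.42 to 1.64), and the same-sign share at 18 months was 48.4% (48.4 to 61.7; aged lists left out 58.8 to 62.7). The Jaccard difference was −0.00719 with lists of unequal length and −0.00823 to 0.0209 with a list left out (−0.00722, −0.00823 and −0.00769 without WT 1, 2 and 3), and the summit distance −1.08 to 3.92 bp (−0.917, −1 and −1.08 without Mlkl-/- 1, 2 and 3). The difference at the site upstream of Mlkl was −0.206, −0.0967 and −0.0573 without WT 1, Mlkl-/- 2 and Mlkl-/- 3 (range −0.206 to 0.494). Leaving out a list makes all-or-none calls easier: 853 to 1374 regions (most without Mlkl-/- 3), 8 to 15 within 10 Mb of Mlkl, and 4 to 11 (young) or 4 to 16 (aged, most without Aged WT 3) shared by the ages. Lists of unequal length gave 3 within 10 Mb and 1 shared by the ages. The AP-1 share of distal regions stayed lower in Mlkl-/- lists with any list left out (−2.64 to −1.89 points, exact permutation p 0.1 to 0.2), and the gap between gained and lost regions was −26.3 to −9.17 points, smallest without Mlkl-/- 3. The NF-kB difference over both ages was −0.109 to −0.0797 points. The cause of these shifts was not tested. What limits all values is 3 lists per group and no read counts.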
